A study of Mus musculus with 37 samples.

Results

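Aquaporins are the membrane channels through which water, and in some members glycerol and other small solutes, cross cell membranes, and 8 of them (Aqp1, Aqp2, Aqp3, Aqp4, Aqp5, Aqp7, Aqp9 and Aqp11) were followed here in the ureter and bladder of mice given a bladder carcinogen. They were 8 of 24421 gene symbols measured, and 8 of the 12 aquaporin symbols in the table, the remaining 4 being Mip, Aqp6, Aqp8 and Aqp12. The set was chosen by the rise of Aqp4 on the cancer side of the ureter, so the measured levels of the cancer side (UT) against the non-cancer side (UN) picked the members. That contrast is therefore given as a description with no test, and Aqp4 is given no test in any comparison.

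All 37 RNA-seq libraries came from wild-type female BALB/c mice that began at an age of 6 to 7 weeks and were followed for 18 weeks. The 10 BBN-treated mice drank water with 0.05% BBN, N-butyl-N-(4-hydroxybutyl) nitrosamine, and 3 untreated mice drank tap water, so that untreated tissue carried 0% BBN. The groups were UT (the ureter side that developed urothelial carcinoma, 11 libraries), UN (the other ureter of a treated mouse, 7 libraries), U (untreated ureter, 6 libraries), BBN bladder (9 libraries) and untreated bladder (3 libraries). The bladder of mouse 6 carried the letter T in its library name, as the UT ureters did and the other bladders did not, so it was kept apart as 1 library. UT 5R and UT 5L were the right and left ureter of 1 mouse, and the 6 U libraries were both ureters of 3 mice, so p-values over libraries measure the spread between these samples and not only between animals. BBN was given to the whole animal, the UN ureters had been exposed like the UT ureters, and whole pieces of tissue were sequenced, so that fewer cells of a type and less RNA per cell cannot be told apart.

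Library totals ran from 3.56e+06 to 1.88e+07 counts, which makes 3 counts worth between 0.16 and 0.84 CPM (counts scaled by the library's total). BBN bladders 1, 3 and 4 and UN 6, which the study lists with degraded RNA, were the 4 shallowest libraries. Defining markers of urothelium were present as the tissue labels say, with summed levels of 23830 to 24995 CPM in untreated bladder and 1935 to 3811 CPM in U, but UN 2 nearly lacked them, at 37.5 CPM against 10767 CPM in the highest UN library. Muscle varied too: 5 of 5 smooth muscle markers were called lower in UT against U and in UT against BBN bladder, and of the skeletal muscle markers tested 1 of 2 and 4 of 4. UT 4 stood apart in another sense: its 8 kidney tubule markers summed to 2138 CPM, against a UT median of 5.30 CPM.

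As background, AQP1, AQP2, AQP4 and AQP5 conduct water and little else, AQP3, AQP7 and AQP9 are aquaglyceroporins that also carry glycerol, and AQP11 is an unorthodox member found mainly inside the cell. AQP1 is known from endothelium, red cells and the proximal tubule, AQP2 is the vasopressin-regulated channel of the kidney collecting duct, and AQP4 is the chief water channel of astrocytes and also sits in the basolateral membrane of collecting duct cells. AQP3 is the basolateral channel of stratified epithelia including the urothelium, AQP5 the apical channel of glands and lung, AQP7 the glycerol exit of adipocytes, and AQP9 a channel of hepatocytes and leukocytes.

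Aqp3 and Aqp7 lie close together and differed in opposite directions, and the windows around their start sites are shown for that reason, with those of another neighbouring pair, Aqp2 and Aqp5, beside them. In the GENCODE annotation of GRCm38, Aqp3 (chr4:41092722-41098183, minus strand) and Aqp7 (chr4:41033074-41048139, minus strand) lie 44.6 kb apart, Aqp3 being lower and Aqp7 higher in untreated ureter than in untreated bladder. Aqp2 (chr15:99579055-99584547, plus strand) and Aqp5 (chr15:99590782-99594829, plus strand) lie 6.23 kb apart. The 4 windows below are RefSeq promoter windows of 300 bases (GRCm38.p6, the C57BL/6J reference and not the BALB/c genome) that run 5′ to 3′ from 250 bases before to 50 bases after the start site, at chr4:41098134-41098433 for Aqp3, chr4:41048087-41048386 for Aqp7, chr15:99578806-99579105 for Aqp2 and chr15:99590778-99591077 for Aqp5. Capitals mark matches, on either strand, to 5 short motifs chosen after the values were seen: TATAAA, known as the TATA box, the CCAAT box, GGGCGG, known as a GC box, TGACTCA, the sequence bound by AP-1 factors, and the E-box CACGTG.
Aqp3: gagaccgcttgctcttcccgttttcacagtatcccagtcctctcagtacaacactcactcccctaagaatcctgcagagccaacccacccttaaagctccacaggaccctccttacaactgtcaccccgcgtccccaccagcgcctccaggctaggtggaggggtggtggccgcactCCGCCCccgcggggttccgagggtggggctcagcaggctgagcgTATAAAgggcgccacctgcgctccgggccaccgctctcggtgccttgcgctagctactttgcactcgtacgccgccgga
Aqp7: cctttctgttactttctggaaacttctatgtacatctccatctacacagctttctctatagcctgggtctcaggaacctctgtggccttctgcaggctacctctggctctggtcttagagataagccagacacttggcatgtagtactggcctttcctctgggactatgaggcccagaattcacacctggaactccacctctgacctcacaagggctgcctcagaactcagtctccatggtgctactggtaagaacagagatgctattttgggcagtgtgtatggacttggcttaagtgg
Aqp2: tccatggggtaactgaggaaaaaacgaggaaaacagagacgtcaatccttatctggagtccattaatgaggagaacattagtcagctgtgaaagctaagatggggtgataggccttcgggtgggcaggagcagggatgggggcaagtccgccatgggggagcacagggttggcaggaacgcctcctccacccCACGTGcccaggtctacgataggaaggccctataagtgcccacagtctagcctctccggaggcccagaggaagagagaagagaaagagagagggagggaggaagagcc
Aqp5: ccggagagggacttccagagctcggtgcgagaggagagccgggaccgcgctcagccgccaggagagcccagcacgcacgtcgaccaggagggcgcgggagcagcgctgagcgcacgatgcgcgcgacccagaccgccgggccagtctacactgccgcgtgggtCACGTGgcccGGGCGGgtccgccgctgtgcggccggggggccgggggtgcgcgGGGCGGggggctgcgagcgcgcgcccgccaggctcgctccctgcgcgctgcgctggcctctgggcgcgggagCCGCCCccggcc

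The Aqp3 window held TATAAA beginning at base -29, and GGGCGG on the opposite strand, and was 64.0% G or C. The Aqp7 window held none of the 5 motifs and was 49.7% G or C, and it was 1 of 2 RefSeq windows for the gene. CACGTG lay in the windows of both Aqp2 and Aqp5, and the Aqp5 window held GGGCGG 3 times and was 79.7% G or C. Of 32851 windows of the same length, TATAAA was found in 13.6%, CCAAT in 37.4%, GGGCGG in 35.7%, TGACTCA in 5.20% and CACGTG in 7.15%. A window was found for 7 of the 8 members, and Aqp4 had none in the table.

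Aqp4 (chr18:15389496-15410982, minus strand), the gene the set was chosen by, was higher in BBN-treated than in untreated bladder. It was near the floor of detection in untreated tissue: the 3 untreated bladders had 0.28, 0.53 and 0.54 CPM, and the 6 U libraries ran from 0.14 through a median of 0.50 to 1.24 CPM, which is 2 to 19 counts. In the BBN bladders it ran from 6.14 through a median of 50.8 to 670 CPM, so that every treated bladder lay above every untreated one. The log2 fold change between BBN and untreated bladder was 8.36 ± 1.49 (SE, edgeR, n = 9 and 3), in a fit without the ureter libraries that picked it. With 4 to 9 counts in the untreated bladders, Aqp4 passed the filter on low counts through the BBN bladders, where it is high, so the value is given as a description with no test. Leaving out each bladder in turn gave log2 fold changes of 7.59 to 8.53, and the lowest value was the one without BBN bladder 8. The bladder of mouse 6 had 6.33 CPM, at the lower end of the treated bladders.

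In the ureter the selected contrast read as follows. UT ran from 5.78 through a median of 138 to 694 CPM and UN from 0.55 through a median of 2.35 to 11.6 CPM, with an overlap between UT 6 and the higher UN libraries. Within mice that gave both sides, UT was above UN in 7 of 7 pairs, and in the 6 mice that gave UN and a bladder of the BBN group UN was below the bladder in 6 of 6 pairs. UT was above the bladder in 7 of 10 pairs from 9 mice, the UT 5R and UT 5L ureters being set against the same bladder here and in the other members' pairs. The UT median was 58.8 times that of UN and 275 times that of U, the UN median was 4.68 times that of U, and the fitted log2 differences were 5.50 ± 0.85 for UT against UN, 8.09 ± 1.05 for UT against U and 2.59 ± 0.89 for UN against U, none of them tested. By median the order was UT, BBN bladder, UN, untreated bladder and U, and the ranges of UT and BBN bladder, of BBN bladder and UN, and of untreated bladder and U overlapped, while UN began just above the highest untreated bladder.

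**Figure D1:**
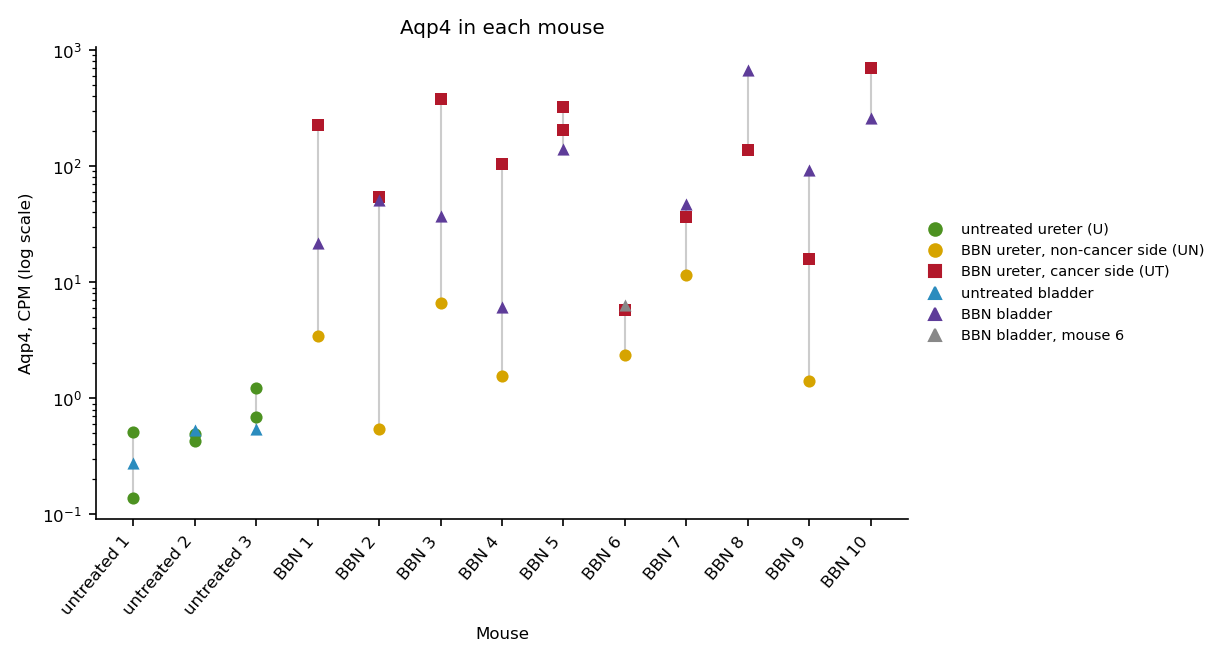
Aqp4 in CPM (log axis) for each mouse, with 1 symbol per library (circles ureter without cancer, squares cancer side, triangles bladder) and a grey line joining the libraries of 1 mouse. The cancer side lay above the non-cancer side in 7 of 7 mice, and untreated tissue did not exceed 1.24 CPM.

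Markers of cells that could carry Aqp4 were set beside these values. The 5 glia and Schwann cell markers summed to 17.5 to 25.4 CPM in U and 1.45 to 40.0 CPM in UT, and to 10.1 to 27.1 CPM in untreated and 3.43 to 31.6 CPM in BBN bladder. The 8 kidney tubule markers summed to at most 64.9 CPM in BBN bladder, and UT 4, where they reached 2138 CPM, had 104 CPM of Aqp4, below the UT median. The 11 urothelium markers summed to less in BBN bladder (1811 to 14267 CPM) than in untreated bladder, whereas Aqp4 was higher there. In the ureter the same sum had a median of 7002 CPM in UT and 3187 CPM in U, and 6 of 11 of its genes were called higher in UT against U, so there it was higher in the group with more Aqp4. The 8 collecting duct markers summed to 15.8 to 26.6 CPM in U and 18.5 to 480 CPM in UT, with medians of 24.03 and 116 CPM, and to 134 to 170 CPM in untreated and 88.5 to 622 CPM in BBN bladder. Of those tested, 2 of 5 were called higher and 0 lower in UT against U (2 higher and 2 lower of 4 without UT 4), and 2 of 6 higher and 2 lower in BBN against untreated bladder. Fxyd4, a regulator of the sodium pump, was called higher in UT against U (5.53 ± 0.92, edgeR, adjusted p = 1.3e-04) and in BBN against untreated bladder (5.16 ± 1.24, adjusted p = 0.018). Avpr2 was the other higher in both (4.29 and 4.39), as a description, since it passed the filter on low counts through treated libraries. Scnn1b and Scnn1g were the 2 lower. How far any of these lists bears on the Aqp4 level was not tested.

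The other water channels differed in level and in group. Aqp1 (chr6:55336432-55348555, plus strand) had in untreated ureter 171, 184, 195, 199, 199 and 230 CPM, and the untreated bladders had 117, 134 and 180 CPM. The BBN bladders ran from 9.01 through 19.9 to 93.4 CPM, all below the untreated ones. That fall was -1.81 ± 0.54 on the log2 scale (edgeR, adjusted p = 0.0538) and was lost when any 1 of the 3 untreated bladders was left out (adjusted p = 0.136 to 0.241).

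In BBN against untreated bladder the calls over all genes stood at 7.08% higher and 5.47% lower, and of the members that passed the filter on low counts Aqp1 was called lower. Aqp4 was above 2-fold higher and is given as a description, and Aqp2 did not pass. Aqp3, at -1.68 ± 0.76 with adjusted p = 0.168, was not called over all 9 BBN bladders and was called without the degraded bladders 1, 3 and 4, at -1.18 with adjusted p = 0.0193, and without BBN bladder 7, at -2.08 with adjusted p = 0.0837. The remaining members had log2 fold changes of -0.67 for Aqp5, 0.04 for Aqp11, 1.11 for Aqp9 and 1.63 for Aqp7, with adjusted p-values of 0.389 to 0.972, Aqp5 standing at -2.15 without BBN bladder 7, and DESeq2 called Aqp3 and Aqp5 lower as well as Aqp1.

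In the treated ureter Aqp1 ran from 19.2 through 93.9 to 210 CPM in UT and from 31.4 through 128 to 236 CPM in UN. UT was lower than U, by -1.19 ± 0.34 (edgeR, adjusted p = 0.00704), and both UT (1.38 ± 0.40, adjusted p = 0.0215) and UN (1.99 ± 0.44, adjusted p = 0.00374) were higher than BBN bladder. Without BBN bladders 1, 3 and 4 the UT difference was 1.16 with adjusted p = 0.157 and was no longer called. Within mice UN exceeded the bladder in 6 of 6 pairs and UT in 8 of 10 pairs from 9 mice. By median the order was U, untreated bladder, UN, UT and BBN bladder, and the ranges of each neighbouring pair overlapped.

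Endothelium markers are given beside Aqp1. The sum of the 6 ran from 31.1 to 327 CPM in BBN bladder against 183 to 248 CPM in untreated bladder, from 99.1 to 664 CPM in UT and from 197 to 465 CPM in U. In UN against BBN bladder 4 of 6 of them were called higher, in UT against BBN bladder 2 of 6, and in UT against U 0 of 6 higher and 1 lower. The 5 erythroid markers reached 12841 CPM in UN 2, where Aqp1 was at 114 CPM, in the middle of its group. Their part in the Aqp1 differences was not tested.

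Aqp2 was at or near 0 in nearly every library. Its counts were 0 in 9 of the 37 libraries and at most 3 in U and 5 in untreated bladder, while UT 4 alone had 3037 counts, or 241 CPM. The other 10 UT libraries did not exceed 1.01 CPM and the UN libraries did not exceed 1.74 CPM. The fitted log2 difference of Aqp2 was 7.37 ± 2.2 for UT against U and 6.0 ± 1.89 for UT against BBN bladder. Both rested on UT 4, through which and a few other treated libraries Aqp2 passed the filter, so they are descriptions with no test. Without UT 4 the log2 fold changes were 1.74 and -0.08.

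Kidney markers were high as a list in UT 4. Umod, encoding the tubule protein uromodulin, stood at 931 CPM against a UT median of 0.51 CPM, Slc34a1, the proximal tubule phosphate transporter, at 514 CPM, and Slc12a1, the target of loop diuretics, at 226 CPM. Of the 8 collecting duct markers, Calb1 reached 204 CPM and Avpr2, the vasopressin receptor, 13.6 CPM. Aqp6, a channel of collecting duct intercalated cells, had 20 counts in UT 4 and 0 in every other UT library. The part of kidney tissue in the Aqp2 value was not tested.

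Aqp5 stayed low throughout. The untreated bladders had 2.41, 3.66 and 4.18 CPM, the U libraries ran from 0.45 through 0.56 to 1.5 CPM, and the log2 difference of U from untreated bladder was -1.83 ± 0.39. With 7 to 23 counts in the U libraries, Aqp5 passed the filter on low counts there through the untreated bladders, where it is high. That difference is therefore a description with no test. UT ran from 0.07 through 1.04 to 3.16 CPM, UN from 0 through 0.22 to 1.37 CPM and BBN bladder from 0 through 0.73 to 11.9 CPM. BBN bladder 7 held that highest value and 180 counts, and no other treated bladder exceeded 1.70 CPM. By median the order was untreated bladder, UT, BBN bladder, U and UN, and the ranges of each neighbouring pair overlapped, while those of U and untreated bladder did not.

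Among the aquaglyceroporins, Aqp3 was the most abundant aquaporin transcript per length of merged exon in every group. In CPM per kb it averaged 601 ± 54.6 in untreated bladder (SD, n = 3) and 116 ± 21.6 in U (n = 6), against 54.7 ± 12.5 and 74.8 ± 7.52 for Aqp1. Its share of the summed CPM per kb of all 12 aquaporins was 91.1% in untreated bladder, 80.8% in BBN bladder, 57.0% in UN, 51.2% in UT and 47.7% in U.

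In CPM, the untreated bladders had 1005, 1087 and 1203 and the U libraries ran from 147 through 214 to 269, so that the untreated organs did not overlap. U was lower by -2.0 ± 0.15 on the log2 scale (edgeR, adjusted p = 2.8e-07). BBN bladder ran from 21.1 through 333 to 924 CPM, UT from 41.9 through 219 to 418 CPM and UN from 0.73 through 171 to 447 CPM. The 3 lowest BBN bladders were the degraded bladders 1, 3 and 4, and the lowest UN library was UN 2, the one that nearly lacked urothelial markers. By median the order was untreated bladder, BBN bladder, UT, U and UN, and the ranges of neighbouring groups overlapped except those of untreated and BBN bladder.

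Urothelium markers are given beside Aqp3. In U against untreated bladder 11 of 11 of them were called lower, and in BBN against untreated bladder 5 of 11 were called lower and 0 higher. In UT against U 6 of 11 were called higher and 2 lower, while Aqp3 had a log2 fold change of -0.27 ± 0.59 (edgeR, adjusted p = 0.733). The part of the amount of urothelium in the Aqp3 levels was not tested.

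Aqp7 behaved in the reverse way across the untreated organs. The U libraries had 110, 114, 133, 138, 153 and 153 CPM, the untreated bladders 0.75, 0.99 and 4.90 CPM, and U was higher by 6.29 ± 0.48 on the log2 scale (edgeR, adjusted p = 3.6e-07). UN ran from 4.83 through 28.8 to 186 CPM, UT from 0.77 through 8.61 to 183 CPM and BBN bladder from 0.99 through 1.41 to 15.4 CPM. The highest UN and the highest UT value came from the same animal, mouse 9. Aqp7 counts were fractional in 37 of 37 libraries, and how the fractions arose is not given in the sources used here, so its level is uncertain.

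UT was lower than U for Aqp7 by -2.53 ± 0.89 (edgeR, adjusted p = 0.0244), or by -2.38 with adjusted p = 0.128 when the 2 ureters of a mouse were summed, and by -3.91 without UT 9, a library of lower RNA integrity in the study's list than the other UT libraries. UN was higher than BBN bladder by 3.14 ± 1.09 (adjusted p = 0.0556), a call that was lost without UN 9 (2.32, adjusted p = 0.184), without mice 8, 9 and 10 (1.67, adjusted p = 0.286) and in the fit paired by mouse (2.58, adjusted p = 0.260). The order by median was U, UN, UT, BBN bladder and untreated bladder, with overlap between each neighbouring pair.

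The 6 adipocyte markers (Adipoq, Plin1, Cidec, Lep, Fabp4 and Lipe) are given beside Aqp7. Their sum was 17477 to 24909 CPM in U and 419 to 1179 CPM in untreated bladder, and 3720 to 21744 CPM in UN, 42.9 to 14325 CPM in UT and 56.5 to 1905 CPM in BBN bladder. In U against untreated bladder 6 of 6 were called higher, in UT against U 6 of 6 lower, and in UN against BBN bladder 6 of 6 higher. Single libraries departed from this: UT 4 had 8.61 CPM of Aqp7 beside an adipocyte sum of 95.9 CPM and BBN bladder 3 had 15.4 CPM beside 775 CPM, while UN 3 had 4.83 CPM beside 6272 CPM, UT 1 had 5.83 CPM beside 4129 CPM and UT 3 had 8.96 CPM beside 8713 CPM. The part of fat tissue in the Aqp7 differences was not tested.

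**Figure D2:**
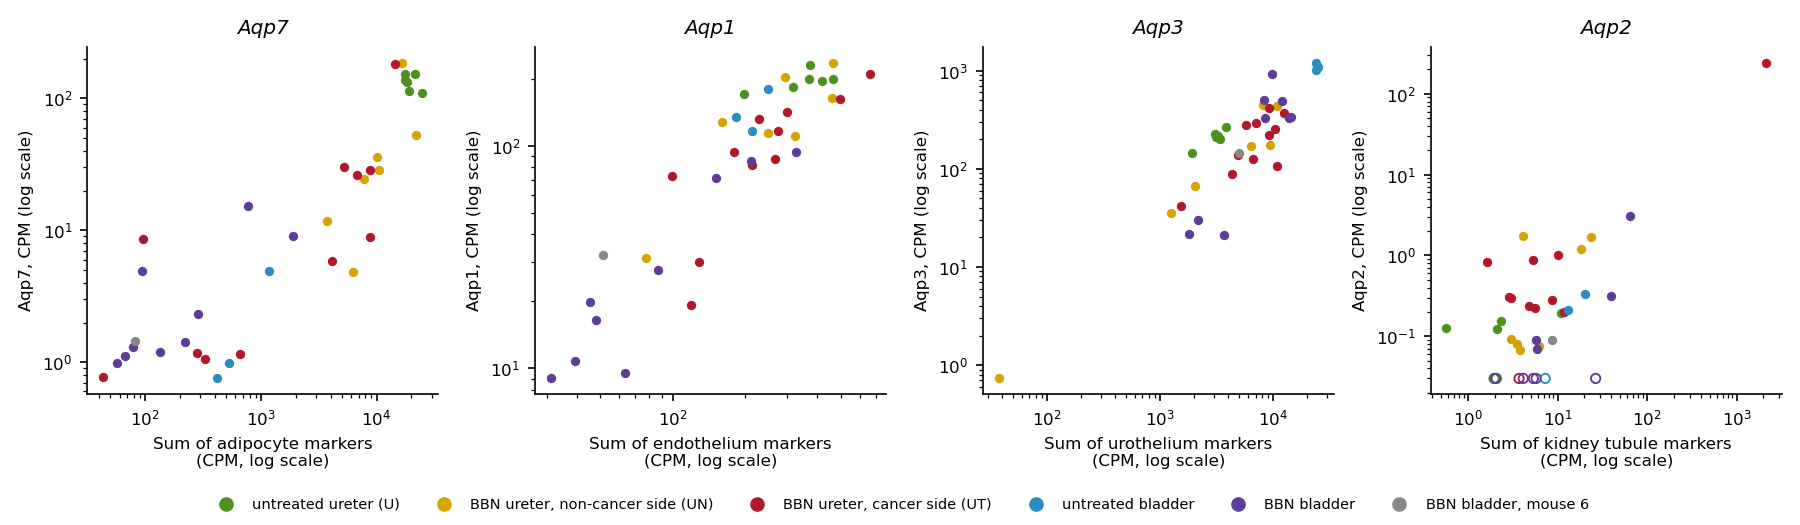
Each point is 1 of 37 libraries, with the summed CPM of a marker list on the x axis and the CPM of Aqp7, Aqp1, Aqp3 or Aqp2 on the y axis (both log scale), and open circles at 0.03 CPM for libraries with no count. The U libraries were high in both Aqp7 and adipocyte markers, Aqp3 was lowest in the library with 37.5 CPM of urothelium markers, and the highest Aqp2 value lay in the library with 2138 CPM of kidney tubule markers.

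Aqp9 (chr9:71110659-71168682, minus strand) was higher on the cancer side than in untreated ureter. UT ran from 0.82 through 6.91 to 22.2 CPM and U from 0.92 through 1.41 to 2.23 CPM, and 10 of 11 UT libraries lay above every U library. The log2 fold change was 2.45 ± 0.61 (edgeR, adjusted p = 0.00288) and ran from 2.26 to 2.60 with each library left out. UN ran from 0.64 through 3.37 to 14.7 CPM, and its difference from U, 1.45 ± 0.62, was not called (adjusted p = 0.123).

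The untreated bladders had 3.06, 4.25 and 4.71 CPM of Aqp9, above every U library, and U was lower by -1.08 ± 0.28 (edgeR, adjusted p = 0.00536). Without U 3R, or without untreated bladder 3, that difference was under 2-fold (-0.98 and -0.95). BBN bladder ran from 1.28 through 2.91 to 22.1 CPM on both sides of the untreated values. The order by median was UT, untreated bladder, UN, BBN bladder and U, and the ranges of neighbouring groups overlapped. The 5 measured neutrophil markers summed to 8.56 to 14.8 CPM in U, 20.2 to 502 CPM in UT and 3.27 to 4.86 CPM in untreated bladder. The 5 macrophage markers summed to 221 to 350 CPM in U and 263 to 1269 CPM in UT, and 3 of 5 were called higher in UT against U, led by Cd68 (1.80 ± 0.39, edgeR, adjusted p = 0.00103) and C1qa (1.59 ± 0.46, adjusted p = 0.00769). The part of either list in the Aqp9 levels was not tested.

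Aqp11 (chr7:97724006-97738289, minus strand) was higher in untreated ureter than in untreated bladder. The U libraries had 30.3, 31.7, 34.3, 37.8, 40.9 and 45.6 CPM and the untreated bladders 5.12, 6.13 and 6.73 CPM, a log2 difference of 3.01 ± 0.20 (edgeR, adjusted p = 1.4e-07). UN ran from 14.9 through 56.5 to 79.9 CPM, UT from 2.98 through 17.2 to 57.3 CPM and BBN bladder from 2.75 through 3.84 to 14.6 CPM. UN exceeded the bladder of the same mouse in 6 of 6 pairs and UT in 9 of 10 pairs from 9 mice.

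UN was higher than BBN bladder by 3.41 ± 0.58 (edgeR, adjusted p = 6.5e-04) and UT by 1.79 ± 0.51 (adjusted p = 0.0201). UT was lower than U by -1.08 ± 0.51 (adjusted p = 0.0845), but in 13 of the 24 fits with 1 library left out, and with the ureters of a mouse summed (-0.98, adjusted p = 0.296), that call was lost. The order by median was UN, U, UT, untreated bladder and BBN bladder, with overlap between neighbours. Adipocyte markers were also high in U and UN, and their part in the Aqp11 levels was not tested.

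**Figure D3:**
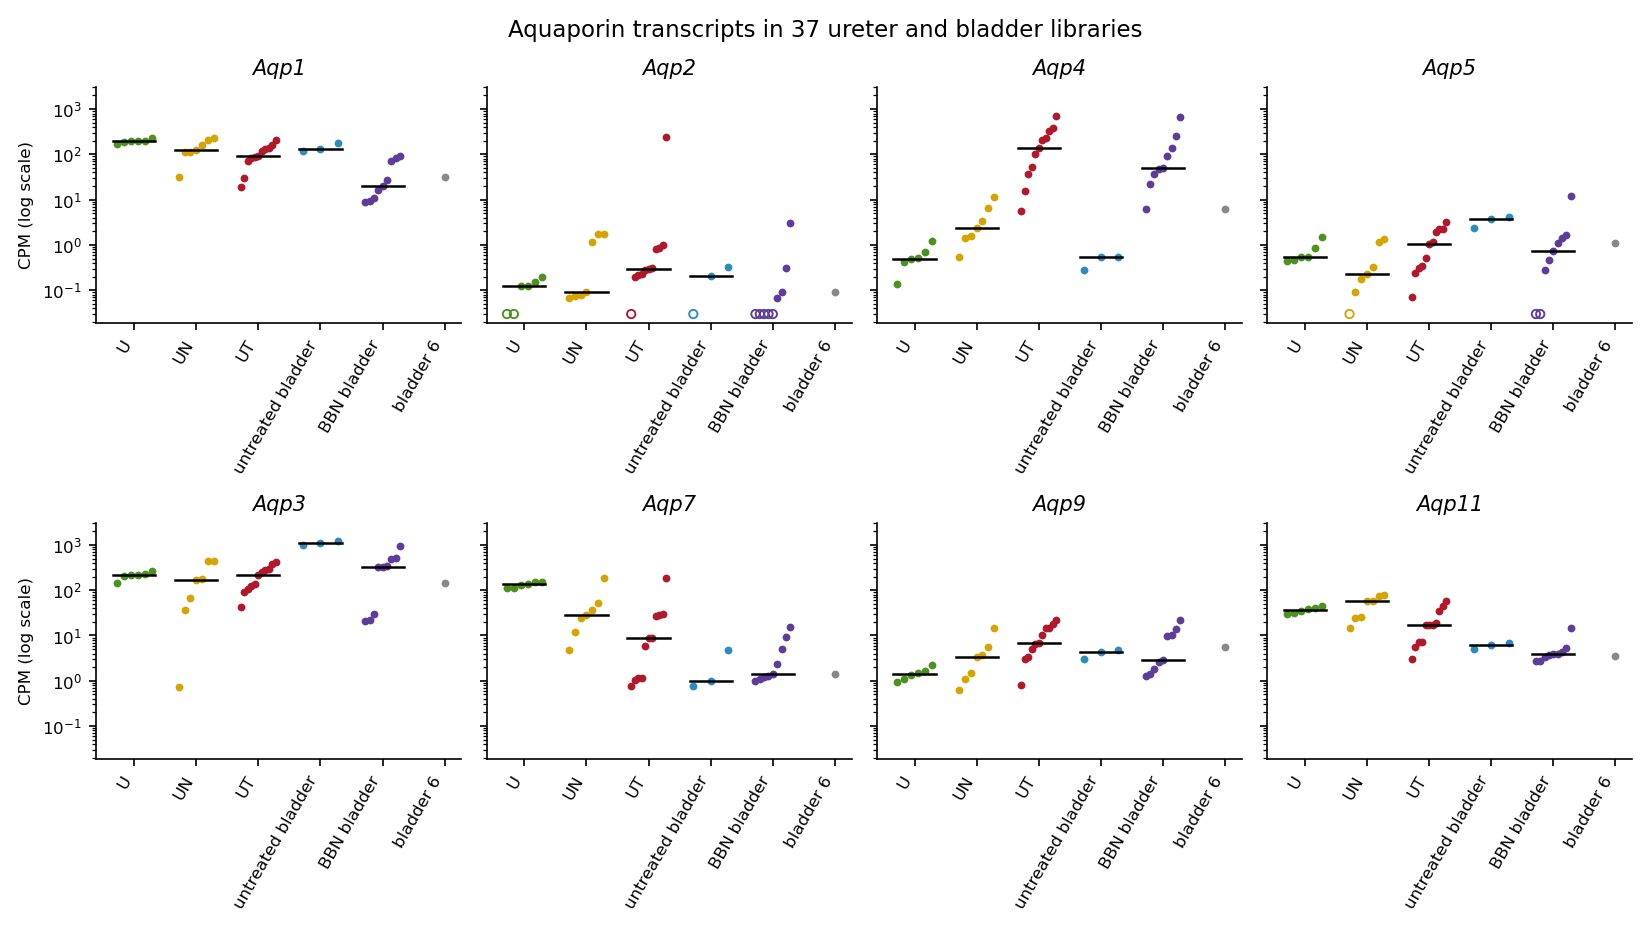
CPM of the 8 aquaporins (log axis) in U, UN, UT, untreated bladder, BBN bladder and the bladder of mouse 6, with 1 point per library, a black bar at the group median where it is above 0, and open circles at 0.03 CPM for libraries with no count. Aqp4 was at most 1.24 CPM in untreated tissue and up to 694 CPM in UT, Aqp7 and Aqp11 were higher in U than in untreated bladder, and Aqp3 was highest in untreated bladder.

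The untreated organs set the frame for these differences. In U against untreated bladder 15.7% of 15318 genes were called higher and 14.3% lower, and among the 6 members that passed the filter 2 were higher (Aqp7 and Aqp11) and 2 lower (Aqp3 and Aqp9). Aqp5 was over 2-fold lower and is a description. Aqp1 was higher by 0.83 ± 0.14 (edgeR, adjusted p = 3.5e-04), which is under 2-fold and so not called, and was 1.03 and called without untreated bladder 2. Aqp2 and Aqp4 did not pass.

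The non-cancer side was compared with untreated ureter to read exposure to BBN without a tumour. In UN against U 12.5% of 15658 genes were called higher and 1.21% lower, and 0 of the 7 members tested were called by edgeR, with 1 (Aqp9) at an unadjusted p under 0.05, while DESeq2 called 2 higher, Aqp2 and Aqp9. With at most 3 counts in any U library, Aqp2 passed the filter through treated libraries, so its DESeq2 call, and a call without UT 4 at 2.83, are descriptions. Aqp9 was called higher without UN 4 (1.63, adjusted p = 0.0829) or without UT 5L (1.45, adjusted p = 0.0872), while leaving out UN 7 gave 0.94. The 7 log2 fold changes ran from -1.38 ± 1.0 for Aqp7 to 2.77 ± 2.18 for Aqp2, with -0.58 for Aqp1, -0.35 for Aqp3, -0.77 for Aqp5 and 0.53 for Aqp11 between them. Aqp7 was called lower without mice 8, 9 and 10 (-2.30, adjusted p = 0.0332). With the ureters of a mouse summed, the genes called higher were 147 in place of 1950, and those called lower 10 in place of 189. In UT against U 18.7% of genes were called higher and 12.3% lower. Of the members tested apart from Aqp2, 1 was higher (Aqp9) and 3 lower (Aqp1, Aqp7, Aqp11). Aqp2 was over 2-fold higher there and is a description. Aqp3 and Aqp5 (0.46 ± 0.64) were not called. Without UT 4 Aqp9 was still called higher.

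The contrast that picked the set is given for the other members as a description with no test. Aqp9 and Aqp5 were each above UN in the UT ureter of the same mouse in 6 of 7 pairs, with fitted log2 differences of 1.0 ± 0.53 and 1.23 ± 0.64. Aqp1 (-0.61 ± 0.33), Aqp7 (-1.15 ± 0.86) and Aqp11 (-1.62 ± 0.49) were each above UN in 2 of 7 pairs, the Aqp7 difference being -2.49 without UT 9 and -0.32 without UN 9, and Aqp3 (0.08 ± 0.57) in 3 of 7. Aqp2 (4.60 ± 1.73) was above UN in 4 of 7 pairs, and its difference was -1.09 without UT 4.

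The organs of treated mice were compared next. In UN against BBN bladder 8.22% of 15939 genes were called higher and 7.22% lower, and 3 of 7 members tested were higher (Aqp1, Aqp7, Aqp11) and 0 lower. Aqp5 (-1.97 ± 0.89, adjusted p = 0.138) was called lower by DESeq2 and without BBN bladders 1, 3 and 4 (-2.42, adjusted p = 0.0397), and stood at -0.53 without BBN bladder 7. Aqp4, not tested, had a log2 difference of -5.05 ± 0.94, and Aqp2 (1.46, or 3.99 without BBN bladder 3), Aqp3 (-0.68) and Aqp9 (-0.84) were not called. In UT against BBN bladder 5.41% were called higher and 11.5% lower, and of the members tested apart from Aqp2, Aqp1 and Aqp11 were higher and 0 lower. Aqp2 (6.0 ± 1.89), resting on UT 4, is a description. Aqp3 (-0.60), Aqp5 (-0.71), Aqp7 (2.0) and Aqp9 (0.17) were not called, and Aqp4, not tested, stood at 0.46 ± 0.67. Aqp7 was called as well without BBN bladder 3 (2.70, adjusted p = 0.0974), without BBN bladders 1, 3 and 4 (4.43, adjusted p = 0.0421) and with no filter (2.33, adjusted p = 0.0686), but stood at 0.63 without UT 9. With the mouse as a block the calls over all genes were 841 higher and 601 lower in place of 1310 and 1151 for UN, and 402 higher and 456 lower in place of 862 and 1830 for UT.

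A test of whether the response to BBN differed between ureter (UN against U) and bladder called 2.33% of 18757 genes in either direction and 0 of 7 members tested, with 1 (Aqp7) at an unadjusted p under 0.05 and 0 called by DESeq2. The difference of responses was 1.21 ± 0.63 for Aqp1, 1.32 ± 1.13 for Aqp3 and -2.91 ± 1.36 for Aqp7 on the log2 scale (edgeR, adjusted p = 0.448, 0.666 and 0.386). It was 1.24 ± 2.22 for Aqp2, -0.18 ± 1.31 for Aqp5, 0.30 ± 0.96 for Aqp9 and 0.41 ± 0.66 for Aqp11, with adjusted p-values of 0.836 to 0.973, and -5.81 ± 1.34 for Aqp4, which was not tested. With 1 library left out the Aqp2 value ran from 0.49 to 4.27, the highest without BBN bladder 3. Without mice 8, 9 and 10 Aqp7 was called (-4.32, adjusted p = 0.079). Aqp2 stood at 5.26 without BBN bladders 1, 3 and 4, which is a description. With at most 3 counts in U and 5 in untreated bladder, it passed the filter through treated libraries. These comparisons share libraries, and each is given by its own values.

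**Figure D4:**
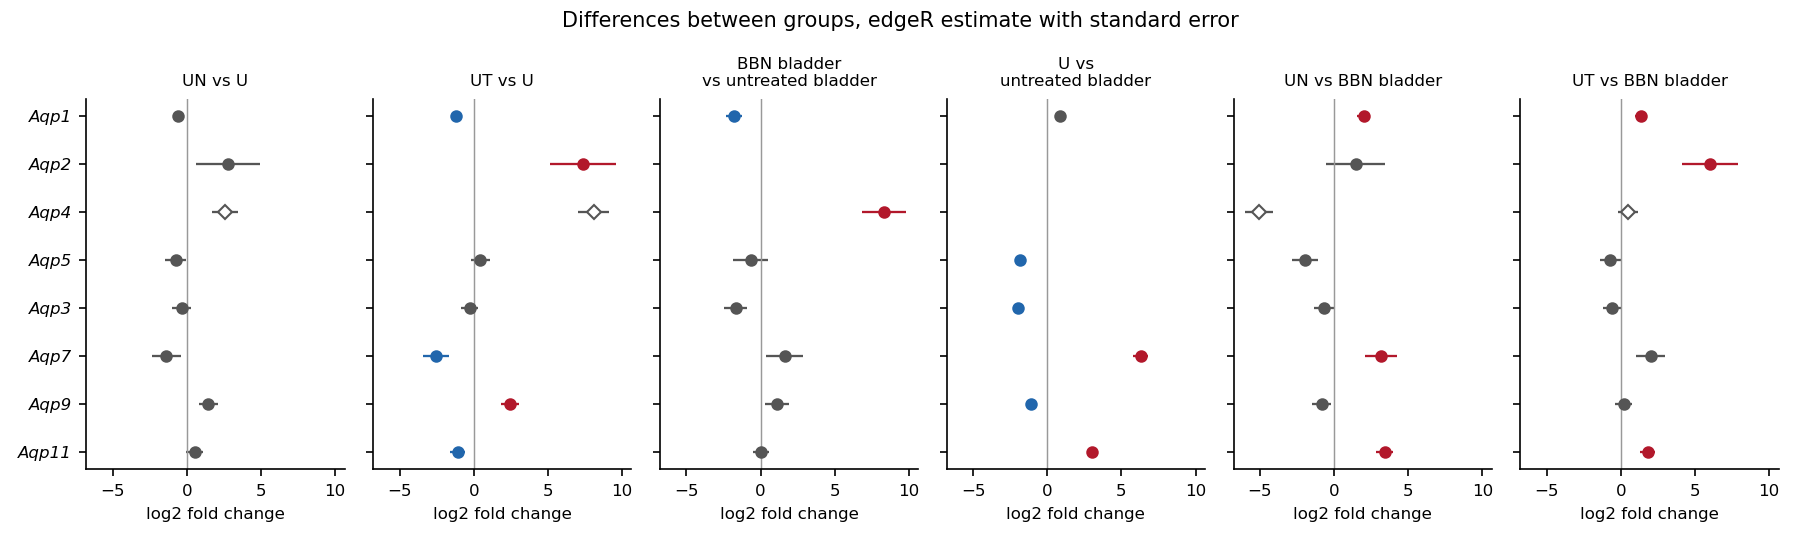
Fitted log2 fold change with its standard error for each member (rows) in 6 comparisons (panels), filled red where called higher, blue where called lower, grey where not called, and open diamonds for Aqp4 where UT or UN enters, which was not tested. The filled marks of Aqp4 in BBN against untreated bladder, of Aqp2 in the 2 panels with UT and of Aqp5 in U against untreated bladder are descriptions, not tests. Aqp4 stood at 8.36 between BBN and untreated bladder, and Aqp3 and Aqp7 lay on opposite sides of 0 in U against untreated bladder.

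Other genes of urea, salt and water transport were read from a list of 12. In UN against U 3 of 10 tested were called higher and 0 lower, led by Kcnj16, a subunit of basolateral potassium channels (6.04 ± 1.5), and Atp1b1, the beta subunit of the sodium pump (2.55 ± 0.62, edgeR, adjusted p = 0.00972). In UT against U 7 of 10 were higher and 0 lower, led by Kcnj16 (9.05 ± 1.59) and Avpr2 (4.29 ± 1.2). Kcnj16 had at most 0.52 CPM and Avpr2 at most 0.24 CPM in U, and both passed the filter through treated libraries. Their values against untreated tissue are therefore descriptions, although the counts of called genes include them. Without UT 4 these were 7 higher and 2 lower, Avpr2 then standing at 2.62, and the 2 that were lower were Scnn1b and Scnn1g, subunits of the epithelial sodium channel, named after their values were seen.

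In BBN against untreated bladder 5 of 10 were higher, led by Kcnj16 (4.93 ± 1.25) and Avpr2 (4.39 ± 1.27), both descriptions. The 2 lower were Scnn1g (-4.86 ± 0.47) and Scnn1b (-2.84 ± 0.46), each with an adjusted p by edgeR of at most 0.0017. In U against untreated bladder 6 of 8 were lower, led by Scnn1g (-2.66 ± 0.18) and the urea transporter gene Slc14a1 (-2.22 ± 0.18), and 1 higher, the sodium-potassium-chloride cotransporter gene Slc12a2 (1.58 ± 0.14). Median log2 fold changes of the list were 1.12, 2.37, 1.09 and -1.82 in these 4 comparisons, against 0.13, 0.11, 0.23 and -0.02 over all genes tested. Urothelium markers differed alongside, with 6 of 11 called higher in UT against U and 11 of 11 lower in U against untreated bladder (medians 1.25 and -2.41), but with 5 of 11 lower and 0 higher in BBN against untreated bladder, and their part in the transport genes was not tested. Kcnj16 ran from 0 to 0.52 CPM in U and from 4.67 through 35.6 to 375 CPM in UT, the highest value being that of UT 4.

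In UN against BBN bladder 0 of 10 transport genes were higher and 1 lower, Scnn1a (-2.32 ± 0.71, edgeR, adjusted p = 0.031), and in UT against BBN bladder 0 of 10 were called by edgeR, 1 having an unadjusted p under 0.05 and DESeq2 calling 1 in each direction, and without UT 4 Avpr2 was called lower (-1.98, adjusted p = 0.0306). The difference of responses was called for 1 of 11, Scnn1g (3.79 ± 0.81, adjusted p = 0.0155). Of 5 genes of the response to tonicity, U against untreated bladder had 2 higher, the osmolyte transporter genes Slc6a12 (4.08 ± 0.57) and Slc5a3 (1.44 ± 0.23), and 2 lower, Nfat5 (-1.06 ± 0.13), the tonicity-responsive transcription factor, and Akr1b3 (-1.05 ± 0.16), the aldose reductase that makes sorbitol. In UT against U Slc6a12 was the 1 gene of the list called, lower by -1.09 ± 0.51 (adjusted p = 0.0828). By edgeR and DESeq2 alike 0 of this list were called in UN against U, 0 having an unadjusted p under 0.05.

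Genes whose levels ran most like those of a member over the 37 libraries were found by Spearman's rho, as a description over libraries that share mice and tissue mixture, among genes of at least 5 CPM on average. For Aqp4 they were Ppp1r1b (0.94), Tspan1 (0.91) and Slco1a5 (0.90), for Aqp3 Fam207a (0.90), Trp63 (0.89) and Fam83c (0.89), and for Aqp1 Tmem204 (0.93), Lin52 (0.93) and Ushbp1 (0.92). Trp63 encodes p63, the transcription factor of basal epithelial cells. For Aqp7 they were Gys2 (0.95), the glycogen synthase of liver, 4931408D14Rik (0.94) and Prlr (0.94), the prolactin receptor, and for Aqp11 Agpat3 (0.88), Sfxn1 (0.88) and Crat (0.88). Aqp5 and Aqp9 had no gene as close: their nearest were Mon1a (0.70), Aktip (0.69) and Dnaja4 (0.68), and Fam111a (0.76), Procr (0.70) and Rab24 (0.68). Aqp2, with no group median of 1 CPM, was not compared.

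Of the 4 aquaporins outside the set, Aqp12 had at most 3 counts in any library and Mip at most 9, and Aqp6 was at 0 outside UT 4 and 1 untreated bladder. Aqp8, a channel of the colon, pancreas and liver, had 1460 counts (150 CPM) in UT 5L, and 0 counts in UT 5R, the other ureter of the same mouse. The next highest library had 0.642 CPM of Aqp8. These libraries were named after their values were seen.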

How the data were processed

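RNA-seq libraries were made by the submitters from ureter and bladder tissue kept in RNAlater, with a kit that does not mark strand. The authors deposited estimated counts per gene symbol for each library, in part fractional and not scaled to library size. The submitters' processing notes list TopHat2 2.1.1 and Cuffdiff 2.2.1, and the study names GRCm38 as its genome. The counting step, annotation and strand setting are not given in the sources used here.

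CPM was computed from these counts and their totals, and CPM per kb from the merged exons of the GENCODE annotation of GRCm38. Counts rounded to whole numbers were tested with the quasi-likelihood test of edgeR 4.0.16 in R 4.3.3 (TMM, filterByExpr), in fits of UT, UN and U, of BBN and untreated bladder, of U and untreated bladder, of UT, UN and BBN bladder, and of 4 groups for the difference of responses. A gene was called at a Benjamini-Hochberg adjusted p under 0.1 over all genes tested and a fold of at least 2. SE is the log2 fold change over the square root of F. Alternatives were DESeq2 1.42.0, other scaling and filtering, other sets of libraries, and the mouse as a replicate block. Libraries of a mouse carry its number in the labels, so they come from the same animal, although what they had left after subtracting each group's mean correlated, by median, only at -0.14 to 0.09. No 2 libraries of a group agreed within sampling noise (lowest chi-square per degree of freedom 7.71).

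Members and lists were chosen with earlier results of these data known. All 8 members are named in every comparison, and of each other list at most 2 called genes of largest fold in each direction. The fit was run on the real counts before it was tested on simulated data, and the test led to no change. Ly6g, of the neutrophil list, was not matched. One further gene list is not reported here. Floors and counts cover counting error only.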

Additional observations from a re-analysis of the deposited data

Results flagged for a closer look

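Each member was looked at in UN, U and BBN bladder, groups of 4 to 10 libraries, and in 6 of these 24 cases 1 library lay apart from the rest by Dixon's criterion. UT, with 11 libraries, was not looked at in this way, so Aqp2 in UT 4 is not among them. Chance gives about 1 in 20 for normally spread values, which CPM values need not be. In the BBN bladders these were Aqp2 in bladder 3 (3.09 CPM from 11 counts, next highest 0.316 CPM), Aqp4 in bladder 8 (670 CPM, next 262 CPM), Aqp5 in bladder 7 (11.9 CPM, next 1.70 CPM) and Aqp11 in bladder 9 (14.6 CPM, next 5.41 CPM). In UN they were Aqp7 in UN 9 (186 CPM, next 52.9 CPM) and Aqp9 in UN 7 (14.7 CPM, next 5.48 CPM). Bladder 3 is one of the bladders listed with degraded RNA.

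Aquaporins outside the set stood above their highest untreated library, and above 3 counts, in several treated libraries. Mip, whose highest untreated level was 0.301 CPM, had 0.316 CPM in UT 1, 0.856 CPM in UN 6, 1.42 CPM in BBN bladder 1 and 1.02 CPM in BBN bladder 4, from 4 to 9 counts. Aqp6, at most 0.0697 CPM in untreated tissue, had 1.59 CPM in UT 4. Aqp8, at most 0.231 CPM in untreated tissue, had 150.1 CPM in UT 5L, and 0.556 CPM in UT 4, 0.593 CPM in UT 6, 0.239 CPM in UT 7, 0.308 CPM in UT 8 and 0.530 CPM in BBN bladder 7, these last from 4 to 8 counts.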

How the results depend on the processing

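Members kept direction and call in 288 of 314 refits under other settings and in 991 of 1027 refits with 1 library left out. These counts take in values given as descriptions, which they do not test. Such values are Aqp4 in BBN against untreated bladder, Aqp2, and Aqp5 in U against untreated bladder. DESeq2 called 2 members higher in UN against U (1 of them Aqp2, a description), 1 higher in UT against U, 3 lower in BBN against untreated bladder and 1 lower in UN against BBN bladder. Without BBN bladders 1, 3 and 4 there were 2 lower in BBN against untreated bladder, 1 lower in UN against BBN bladder and 1 higher in the difference of responses (Aqp2, a description). Without mice 8, 9 and 10 there was 1 lower in UN against U and 1 lower in the difference of responses, and with the ureters of a mouse summed 1 lower in UT against U.

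Signs turned for members that were not called in either fit, apart from Aqp2, a description, in UT against BBN bladder (-0.84 with DESeq2). In BBN against untreated bladder they were Aqp7 (-0.69) and Aqp11 (-0.13) without bladders 1, 3 and 4, and Aqp11 (-0.046 with no filter, -0.25 without mice 8, 9 and 10), and in UT against BBN bladder Aqp7 (-0.069) and Aqp9 (-0.47) without mice 8, 9 and 10.

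Counts over all genes moved further. With DESeq2 they were 296 lower in UN against U, 4430 higher in BBN against untreated bladder, 1914 lower in UN against BBN bladder, and 491 higher and 506 lower in the difference of responses. With the ureters of a mouse summed they were 147 higher and 10 lower in UN against U and 57 and 39 in the difference of responses. Without bladders 1, 3 and 4 they were 1601 lower in BBN against untreated bladder, 2469 higher in UN against BBN bladder, 309 lower in UT against BBN bladder, and 782 and 340 in the difference of responses. Without mice 8, 9 and 10 they were 632 lower in UN against U, 2507 higher in BBN against untreated bladder, 754 and 482 higher in UN and UT against BBN bladder, and 253 lower in the difference of responses. With no filter they were 1299 higher and 5988 lower in UT against BBN bladder. The replicate block gave 841 and 601 in UN and 402 and 456 in UT against BBN bladder. Of the called members Aqp7 lost its call there in UN, and Aqp2, a description, had no value in UT. The cause was not tested.

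With 1 library left out, members called ranged from 0 to 1 higher in UN against U, 1 to 2 higher in UT against U, and 0 to 2 lower in BBN against untreated bladder. The ranges for UN and UT against U count Aqp2, whose calls are descriptions. Genes called ranged from 97 to 422 lower in UN against U, 518 to 1499 higher and 479 to 1103 lower in BBN against untreated bladder, 550 to 1870 lower in UN against BBN bladder, and 127 to 459 higher and 29 to 204 lower in the difference of responses. Counts moved by over 1.5 times without UN 3 (97), U 2L (122) or UN 9 (422) in UN against U, without untreated bladder 1, 2 or 3 in BBN against untreated bladder (518, 530 and 527 higher, 479, 508 and 501 lower) and in the difference of responses (136, 157 and 127 higher, 41, 54 and 29 lower), there also without U 2L (205 higher) and UN 6 (204 lower), and in UN against BBN bladder without UN 2 (590), UN 4 (695), UN 6 (1870) or UN 9 (550). Signs turned in these fits for Aqp11 in BBN against untreated bladder (-0.20 to 0.17), for Aqp2 (-0.084 to 8.57), Aqp5 (-1.0 to 0.73) and Aqp9 (-0.024 to 0.50) in UT against BBN bladder, and for Aqp5 (-0.61 to 1.31) and Aqp9 (-0.23 to 0.68) in the difference of responses. Aqp2 and Aqp5 in most libraries, and Aqp4 in untreated tissue, rested on few counts.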
